A study of Rattus norvegicus with 8 samples.

Results

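The 8 genes described here encode the subunits and inhibitors of the transcription factor NF-kB and the feedback arm of cytokine signalling through STAT3. They were chosen by their Ensembl rat identifiers, by a rule that uses no measured value although it was written with earlier results of these data known, and all 8 were found among the 26404 genes of the count table. The subunits are Nfkb1 (ENSRNOG00000023258), Nfkb2 (ENSRNOG00000019311) and Rela (ENSRNOG00000030888). The NF-kB inhibitors are Nfkbia (ENSRNOG00000007390) and Tnfaip3 (ENSRNOG00000049517). Stat3 (ENSRNOG00000019742) stands with Socs1 (ENSRNOG00000002568) and Socs3 (ENSRNOG00000002946), which restrain the kinases that activate it. Poly(A) RNA was sequenced from dorsal hind paw skin of Sprague-Dawley rats weighing 125 to 200 g, all under urethane (1.5 g/kg). In the burn group, 4 libraries, the paw had been immersed in saline at 60 °C for 2 min to give a deep partial-thickness scald. In the control group, also 4 libraries, the opposite paw had been in saline at room temperature. Both groups had carried a microdialysis probe at the excised site, and the animals were killed with pentobarbital (40 mg). The sources used here do not give the age or sex of the rats or the time from burn to excision.

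NF-kB is a family of paired DNA-binding subunits that is held in the cytoplasm of resting cells by inhibitory IkB proteins. Injury signals, such as interleukin-1, TNF and ligands of Toll-like receptors, lead to destruction of IkB, and the freed subunits enter the nucleus and switch on genes of inflammation. The genes for IkB-alpha, for the precursor subunits and for the ubiquitin-editing enzyme A20 are themselves among the targets, so that the signal raises its own brakes. Cytokines of the interleukin-6 family activate STAT3 through JAK kinases, and SOCS proteins close that loop in the same manner. In skin both pathways operate in keratinocytes, fibroblasts, endothelium and immune cells.

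The start regions of these genes are shown first, because several of the genes are known targets of the factor they encode or inhibit. RefSeq start windows of build GRCr8, running from 250 bases before to 50 bases after each annotated start, were matched by symbol for all 8 genes. The NF-kB site searched was GGGA and TTCC with any 2 bases between them, and the STAT site was TTC and GAA with any 3 bases between them, each on both strands. The windows of 4 of the 8 genes, Nfkbia, Nfkb1, Nfkb2 and Tnfaip3, held the NF-kB letters, against 1.30% of the 33469 windows in the table. Only the window of Socs1 among the 8 held the STAT letters, which 8.87% of all windows held. The Socs3 window appears to reach the coding start and may not be that gene's promoter, so its lack of a match says nothing of the promoter. The 2 motifs did not overlap in any of these windows. A match is a run of letters and not a measured binding site. Looser forms of either site were not searched, so the unmarked letters may hold some. In the following runs, written 5′ to 3′ on the gene's strand, capitals mark the matching letters. For Nfkbia, Nfkb2 and Tnfaip3 the 250 bases upstream of the start are given, and for Nfkb1, whose match lies 4 to 13 bases into the transcript, and Socs1 the match with 10 bases on either side.
Nfkbia, chr6:78597073-78597322, minus strand: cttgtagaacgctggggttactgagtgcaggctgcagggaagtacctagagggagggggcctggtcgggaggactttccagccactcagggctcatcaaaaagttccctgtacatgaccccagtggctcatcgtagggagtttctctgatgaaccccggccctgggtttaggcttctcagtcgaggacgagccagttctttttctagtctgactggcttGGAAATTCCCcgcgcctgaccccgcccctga
Nfkb2, chr1:255108124-255108373, plus strand: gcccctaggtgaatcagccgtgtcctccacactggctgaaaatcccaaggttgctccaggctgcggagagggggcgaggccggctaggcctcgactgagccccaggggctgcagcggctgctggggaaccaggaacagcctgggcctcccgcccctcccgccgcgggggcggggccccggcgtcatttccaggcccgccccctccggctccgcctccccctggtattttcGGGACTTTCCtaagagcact
Tnfaip3, chr1:15543980-15544229, minus strand: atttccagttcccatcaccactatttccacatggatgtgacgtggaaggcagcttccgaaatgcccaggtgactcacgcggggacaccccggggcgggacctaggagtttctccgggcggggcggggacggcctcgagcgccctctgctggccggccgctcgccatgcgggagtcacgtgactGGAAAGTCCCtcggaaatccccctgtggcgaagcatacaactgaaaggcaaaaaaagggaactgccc
Nfkb1, chr2:226805440-226805469, minus strand: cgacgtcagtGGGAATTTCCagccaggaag
Socs1, chr10:5389368-5389396, plus strand: agaagtcccaTTCAGGGAAggtgcgaggc
The match lies 31 to 22 bases before the start in Nfkbia, 20 to 11 bases before it in Nfkb2 and 67 to 58 bases before it in Tnfaip3, and the Socs1 match lies 196 to 188 bases before the start. The match is on the gene's own strand in Nfkb1 and Nfkb2 and on the opposite strand in Nfkbia and Tnfaip3. The submitters' processing notes name an older build, Rnor_5.0, and the count table carries no coordinates.

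The depth of the burn libraries was 13693811 to 18738652 counts, and that of the control libraries 17824830 to 26837925. Burn replicate 3 stood apart from the rest. It had 15354 genes with at least 1 count, where the other 7 libraries had 17322 to 17547, and the 25 genes most abundant over all 8 libraries took 15.1% of its counts. Those 25 genes took 41.6% to 44.8% in burn replicates 1, 2 and 4 and 23.4% to 27.3% in the controls. The label of skin could not be checked against marker genes, because the count table carries identifiers without symbols and the reference pairs none of them. In bulk skin, fewer cells of a type and less RNA per cell cannot be told apart.

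Burned skin held more Nfkbia transcript and less Stat3 transcript than control skin, and the other 6 genes did not pass the test. Nfkbia was 2.12 times its control level and Stat3 0.647 times. All 8 genes passed the filter on low counts, and the edgeR quasi-likelihood test at an adjusted p under 0.05 called 1 of the 8 higher and 1 lower in burn. Over the 14240 genes tested it called 11.9% higher and 10.0% lower, so the share of these 8 that were called was near the background. With scaling by library size alone the balance over all genes turned, to 894 higher and 2138 lower from 1689 and 1426, while the calls on these 8 were still 1 and 1. Their median log2 fold change was 0.11, beside 0.06 over all genes tested. The DESeq2 Wald test and limma-voom also called Nfkbia and Stat3 and no other of the 8, with DESeq2 giving no adjusted p for Socs3. Over the 14240 genes tested DESeq2 called 2379 higher and 2203 lower, and limma-voom called 1532 higher and 1671 lower. At an unadjusted p under 0.05 edgeR added Nfkb2, but the share of all genes at that limit was not counted, so this is not read as a result. The groups did not overlap for Nfkbia and Stat3 and overlapped for the other 6, while over all genes tested 15.4% lay wholly higher and 15.6% wholly lower in burn.

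**Figure D1:**
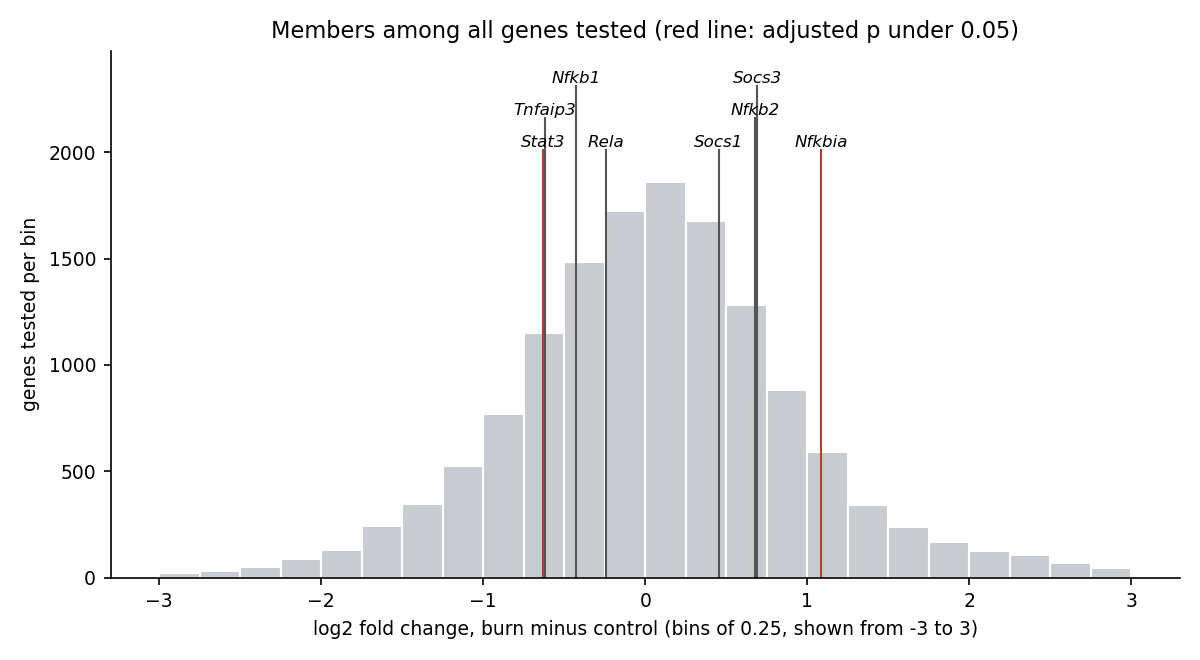
Histogram of the log2 fold change, burn minus control, of all 14240 genes tested, as genes per bin of 0.25 and shown from -3 to 3, with a line at each of the 8 genes. The red lines are the 2 genes that passed the test, Stat3 at -0.63 and Nfkbia at 1.09, and all 8 lie within the bulk of the distribution.

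Nfkbia encodes IkB-alpha, the inhibitor that holds NF-kB in the cytoplasm and is resynthesised when NF-kB is active. Its level in CPM, which is read counts scaled to one library total with TMM factors, was 880.1, 1117, 617 and 583 over burn replicates 1 to 4, while the control replicates stood at 385, 386, 375 and 360. Every burn library lay above every control library, and the controls lay very close together. The means were 799 ± 250 CPM in burn and 376 ± 12.1 in control (SD, n = 4). Nfkbia rose by 1.09 on the log2 scale (SE 0.24, edgeR adjusted p = 0.0152), higher in 4 of 4 burn libraries, and lay at percentile 88.3 of the log2 fold changes of all genes tested. It was an abundant transcript, with 7579 to 16864 counts in each library. The adjusted p of edgeR was 0.0538 without control replicate 2 and 0.0501 without control replicate 4, with log2 fold changes of 1.09 and 1.06. In those refits 673 and 843 genes were called higher over all genes tested, against 1689 with all libraries. Over all 17 alternatives the adjusted p of Nfkbia ran from 8.84e-05 to 0.0538. Without burn replicate 3 the log2 fold change was 1.19 (edgeR adjusted p = 0.00748).

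Tnfaip3 encodes A20, the other NF-kB brake among these genes, and unlike those of Nfkbia its burn libraries did not lie above every control. Its level was 28.8, 32.3, 6.19 and 12.4 CPM in burn replicates 1 to 4 and 22.7, 35.3, 30.8 and 33.3 CPM in control replicates 1 to 4. Burn replicates 1 and 2 lay within the control range, and burn replicates 3 and 4 lay below it. The log2 fold change was -0.62 (SE 0.46, edgeR adjusted p = 0.360). Without burn replicate 3, the library with few scarce genes, it was -0.32 (edgeR adjusted p = 0.483, and 0.118 to 0.552 over the alternatives). It was -0.96 without burn replicate 2 and by limma-voom, and -0.94 with library size alone. The SD of log2 CPM was 1.11 among burn libraries and 0.28 among control libraries. The whole range in burn was 5.22-fold, from 118 counts in burn replicate 3 to 488 in burn replicate 2.

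Of the 3 NF-kB subunit genes, 0 passed the edgeR test and 0 passed by DESeq2 or limma-voom. Over all genes tested edgeR called 21.9% in either direction, and 0 of 3 genes cannot be told apart from that share. Only Nfkb2 had an unadjusted p under 0.05 by edgeR, a limit at which the share of all genes was not counted. Nfkb1 encodes the precursor of the p50 subunit, which also acts as an IkB-like inhibitor before it is cut. Nfkb1 stood at 66.6, 115.9, 63.7 and 70.2 CPM in burn replicates 1 to 4 and at 121, 131, 86.6 and 87.0 CPM in control replicates 1 to 4. Burn replicates 1, 3 and 4 lay below every control library and burn replicate 2 lay among the controls. The log2 fold change was -0.43 (SE 0.24, edgeR adjusted p = 0.235). Without burn replicate 2 it was -0.67 and passed the threshold (edgeR adjusted p = 0.0381, and up to 0.455 over the other alternatives), so the call changed with this 1 library. In that refit 1789 genes were called lower over all genes tested, against 1426 with all libraries. With library size alone the log2 fold change of Nfkb1 was also -0.67 (edgeR adjusted p = 0.0702).

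Nfkb2 encodes the precursor of p52, the subunit of the alternative NF-kB pathway. Its level was 53.8, 84.8, 52.1 and 34.7 CPM in burn replicates 1 to 4 and 37.8, 39.5, 30.7 and 32.5 CPM in control replicates 1 to 4. Here burn replicates 1, 2 and 3 lay above every control library and burn replicate 4 lay among them. The log2 fold change was 0.68 (SE 0.26, edgeR adjusted p = 0.0896). Without burn replicate 4 it was 0.85 and passed the threshold (edgeR adjusted p = 0.0360, and up to 0.248 over the other alternatives). Without burn replicate 2 it was 0.41 (edgeR adjusted p = 0.155), by limma-voom with sample quality weights it was 0.38, and with library size alone 0.45.

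Rela encodes p65, the subunit that carries the activating domain of the most common NF-kB dimer. It stood at 75.1, 106.4, 61.5 and 68.3 CPM in burn replicates 1 to 4 and at 97.0, 91.1, 87.0 and 92.6 CPM in control replicates 1 to 4. Burn replicate 2 was the highest of all 8 libraries and the other 3 burn libraries lay below every control. The log2 fold change was -0.24 (SE 0.19, edgeR adjusted p = 0.382). Scaling by library size alone moved it to -0.49 (edgeR adjusted p = 0.0808, and 0.0555 to 0.561 over the alternatives). It was -0.43 without burn replicate 2 and -0.15 without burn replicate 3.

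**Figure D2:**
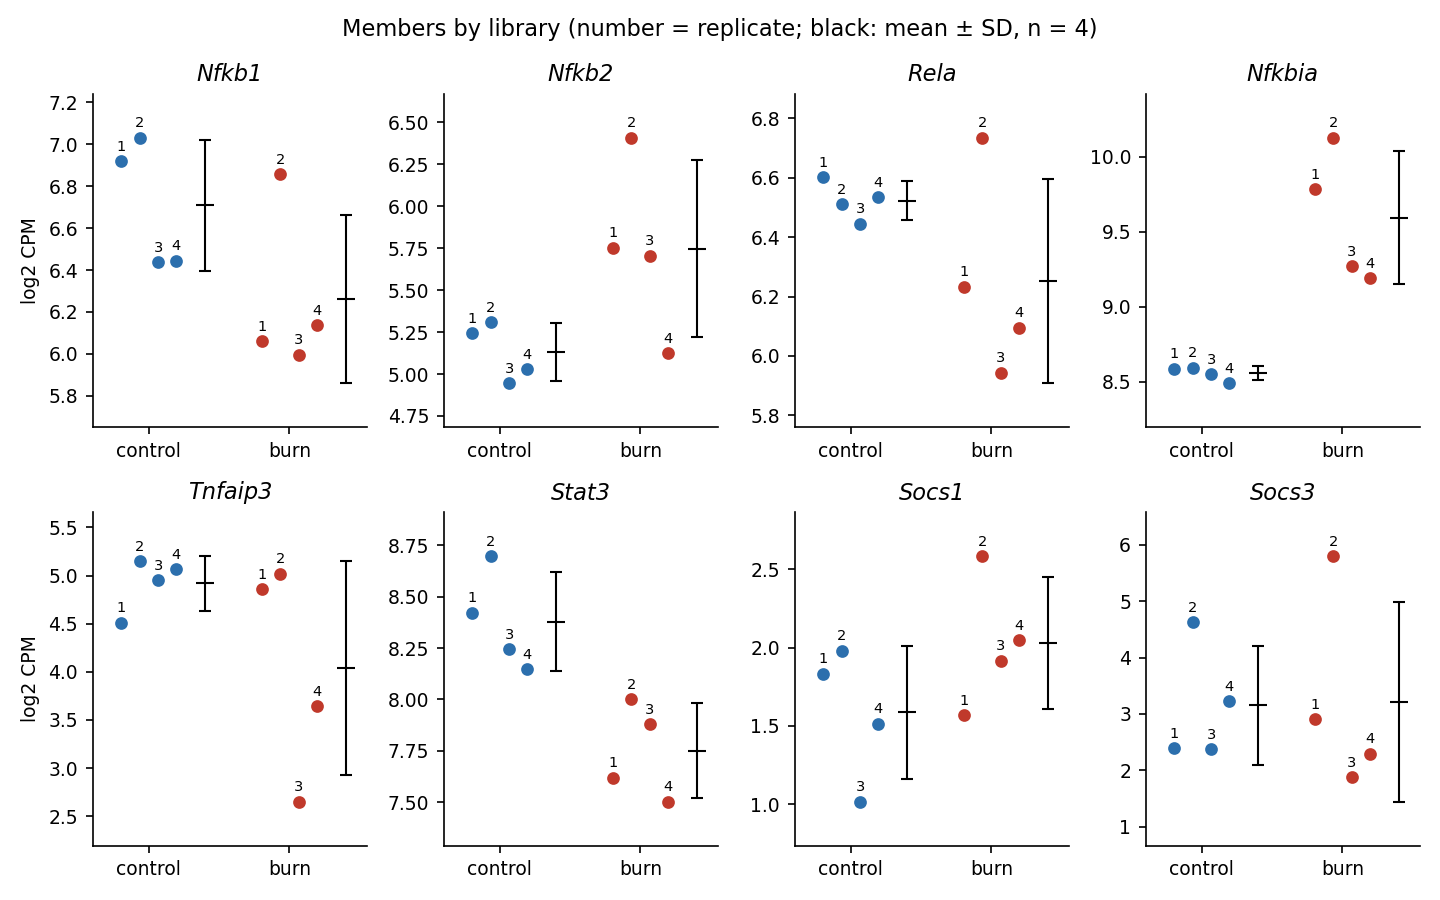
Level of each of the 8 genes in log2 CPM (vertical axes, which differ between panels), 1 point per library with its replicate number, blue for control and red for burn, with the group mean and SD (n = 4) in black. Nfkbia and Stat3 are the panels in which the groups do not overlap, and burn replicate 2 is the highest burn library in all 8 panels (7 of 8 with scaling by library size alone).

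Stat3 encodes the factor that carries interleukin-6 family signals to the nucleus. Its level was 197, 256, 236 and 181 CPM in burn replicates 1 to 4 and 343, 415, 303 and 284 CPM in control replicates 1 to 4. All 4 burn libraries lay below all 4 control libraries, with burn replicate 2 nearest to control replicate 4. The means were 217 ± 34.6 CPM in burn and 336 ± 58.2 in control (SD, n = 4). Stat3 fell by 0.63 on the log2 scale (SE 0.19, edgeR adjusted p = 0.0452). That call was narrow, and the edgeR adjusted p was 0.104 without burn replicate 1, 0.0957 without burn replicate 4, and 0.103, 0.126, 0.0759 and 0.0633 without control replicates 1 to 4. In each of these refits fewer genes were also called lower over all genes tested, 546 to 1168 against 1426 with all libraries. Without burn replicates 2 and 3, where Stat3 still passed, 1789 and 1929 genes were called lower. The DESeq2 Wald test gave the lowest adjusted p of the alternatives, 0.00612. Without burn replicate 3 the log2 fold change was -0.67 (edgeR adjusted p = 0.0331).

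The SOCS genes were the scarcest reads of the set and neither passed the edgeR test, at an adjusted or an unadjusted p under 0.05. Socs1, whose product inhibits JAK kinases downstream of interferons and other cytokines, had 33 to 111 counts in each library. It stood at 2.87, 5.90, 3.67 and 4.03 CPM in burn replicates 1 to 4 and at 3.47, 3.84, 1.93 and 2.76 CPM in control replicates 1 to 4. The groups overlapped, and the log2 fold change was 0.46 (SE 0.34, edgeR adjusted p = 0.363). It was 0.23 without burn replicate 2, 0.29 without control replicate 3 and 0.23 with library size alone. Counting error alone is wide at this depth, since the 33 counts of burn replicate 1 have an exact Poisson 95% interval of 22.7 to 46.3.

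Socs3, which restrains signalling by the interleukin-6 receptor chain and by the leptin receptor, varied most between libraries of the same group. Its level was 7.38, 55.6, 3.57 and 4.82 CPM in burn replicates 1 to 4 and 5.15, 24.6, 5.09 and 9.27 CPM in control replicates 1 to 4. The second library of each group was far above its 3 companions, while those companions ran from 3.57 to 7.38 CPM in burn and from 5.09 to 9.27 CPM in control. The range was 15.6-fold within burn and 4.83-fold within control. The log2 fold change was 0.69 (SE 0.92, edgeR adjusted p = 0.618), and without burn replicate 2 it turned to -1.08 (edgeR adjusted p = 0.209, the lowest of the alternatives; the highest was 0.987). The numbers of the libraries were given in accession order and tie no burned paw to a control paw.

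**Figure D3:**
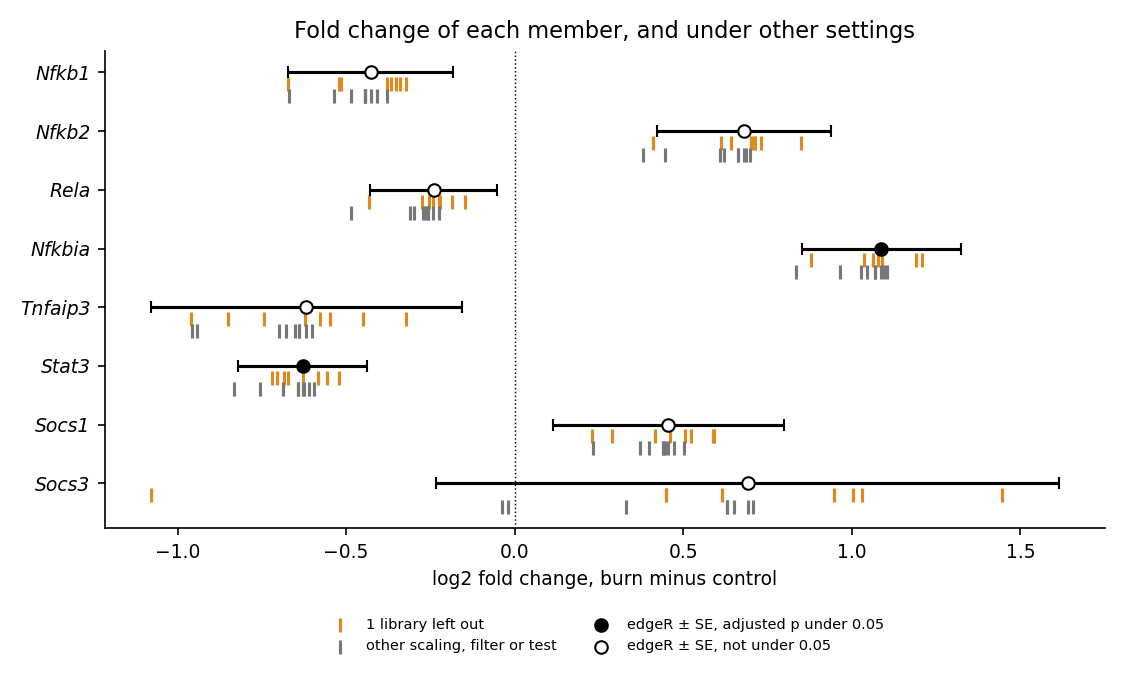
The log2 fold change, burn minus control, of each gene (black circle, with SE; filled where the edgeR adjusted p was under 0.05), with orange ticks for refits that leave out 1 library and grey ticks for other scalings, filters and tests. The ticks stay on one side of 0 for every gene but Socs3, which runs from -1.08 to 1.44.

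Count ratios of 2 genes within a library do not depend on how that library is scaled, so 8 pairs of these genes were compared. The pairs set an NF-kB inhibitor beside a subunit, a subunit beside another, a SOCS gene beside Stat3, or the SOCS genes beside each other. In all 4 burn libraries Nfkbia was higher relative to Rela and to Nfkb1, and Nfkb2 higher relative to Nfkb1, than in any control library. Since the genes differ in length, a ratio is read only as it changes between libraries. For each Rela count the burn replicates had 11.7, 10.5, 10.03 and 8.54 Nfkbia counts and the control replicates 3.97, 4.23, 4.30 and 3.88, in the order 1 to 4. The burn ratios were thus all above the control ratios, 2.47-fold on average, with a log2 difference of 1.31 and a log2 SD of 0.19 in burn and 0.07 in control. The Nfkbia to Nfkb1 ratio was 13.2, 9.63, 9.68 and 8.31 in burn and 3.18, 2.95, 4.32 and 4.14 in control, a log2 difference of 1.48. The Nfkb2 to Nfkb1 ratio was 0.807, 0.732, 0.818 and 0.495 in burn and 0.313, 0.302, 0.355 and 0.374 in control, a log2 difference of 1.06. The estimates for the 2 precursor genes had opposite signs and neither gene passed the test singly, while their ratio lay above every control in 4 of 4 burn libraries. That ratio did not pass either (exact permutation test, adjusted p = 0.0571), though its p was already the smallest that 4 libraries against 4 allow. Of all other genes tested, 17.2% had a ratio to Nfkb1 that was wholly higher in burn.

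Socs1 was also higher for each Stat3 count, at 0.0148, 0.0231, 0.0157 and 0.0224 in burn and 0.0102, 0.00930, 0.00644 and 0.00978 in control, a log2 difference of 1.08. Each of these 4 ratios gave p = 0.0286 in a two-sided exact permutation test, the smallest that 4 libraries against 4 allow, and an adjusted p of 0.0571 over the 8 pairs in that permutation test. None of the 8 pairs therefore passed an adjusted threshold of 0.05, and the pairs share genes. With only these 4 pairs at the smallest p, none could have passed, however large its change. Of all other genes tested, 18.6% had a count ratio to Rela that was wholly higher in burn, 17.2% had such a ratio to Nfkb1 and 31.6% to Stat3. Such a separation was therefore not rare among genes, and against Stat3 it was common. Without burn replicate 3 the log2 differences of the 4 ratios were 1.31, 1.50, 0.99 and 1.17 in the order given here, and leaving out any 1 library kept them between 1.24 and 1.39, 1.35 and 1.57, 0.99 and 1.23, and 0.94 and 1.20.

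The other 4 ratios overlapped between the groups. Tnfaip3 for each Rela count was 0.384, 0.304, 0.101 and 0.182 in burn and 0.234, 0.388, 0.355 and 0.360 in control (two-sided exact permutation test, p = 0.229, adjusted p = 0.366). Nfkb1 for each Rela count ran from 0.887 to 1.09 in burn and from 0.939 to 1.43 in control (exact permutation test, p = 0.314, adjusted p = 0.419). Socs3 for each Stat3 count ran from 0.0153 to 0.217 in burn and from 0.0151 to 0.0593 in control (exact permutation test, p = 0.514, adjusted p = 0.588). Socs3 for each Socs1 count ran from 0.972 to 9.38 in burn and from 1.48 to 6.37 in control (exact permutation test, p = 0.629, adjusted p = 0.629).

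**Figure D4:**
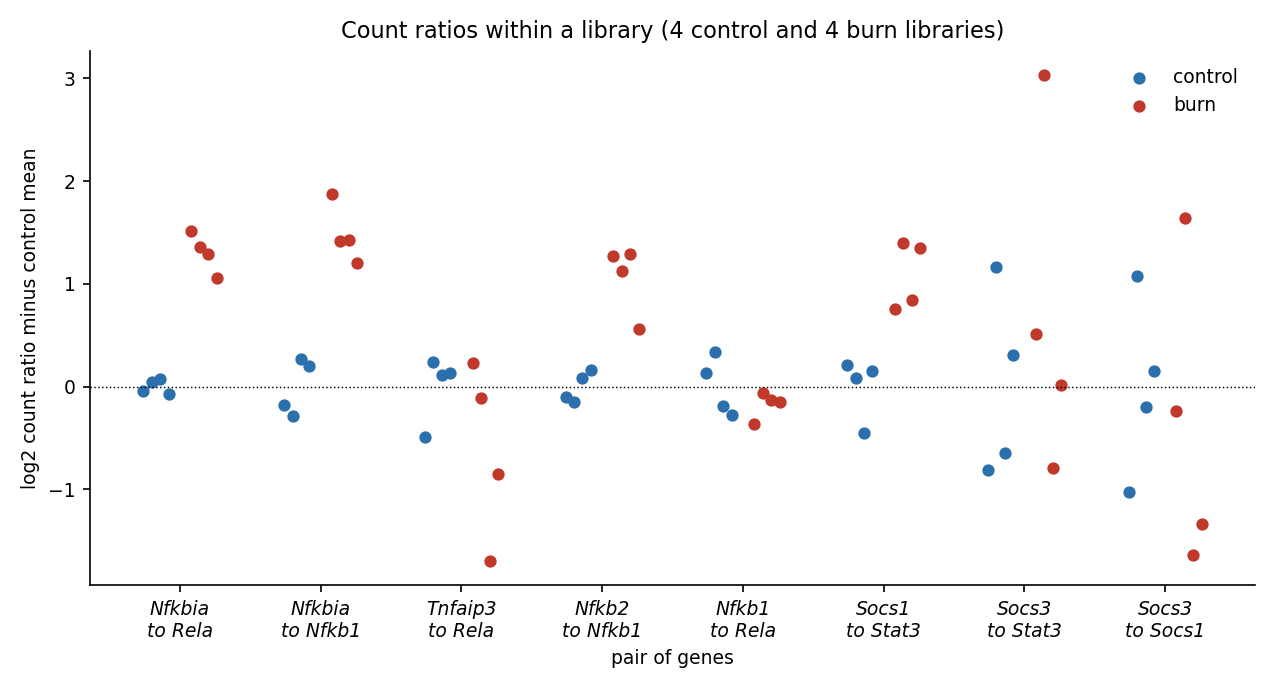
Log2 ratio of the counts of 2 genes in the same library, less the mean of the 4 control libraries, 1 point per library, blue for control and red for burn. The 4 pairs with all red points above all blue points are Nfkbia to Rela, Nfkbia to Nfkb1, Nfkb2 to Nfkb1 and Socs1 to Stat3.

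The estimates for the 4 genes whose start windows held the NF-kB letters did not share a sign, though only that of Nfkbia passed the test. Nfkbia rose, while the log2 fold changes were 0.68 for Nfkb2, -0.43 for Nfkb1 and -0.62 for Tnfaip3, none of which passed the test. The 2 genes that passed were Nfkbia, with those letters 31 to 22 bases before its start, and Stat3, with neither motif in its window. Whether the letters bear on any of these changes was not tested. Between libraries of a group there was more in common. Burn replicate 2 was the highest burn library for all 8 genes, and it was the highest for 33.7% of all genes tested. Control replicate 2 was the highest control library for 7 of the 8, with Rela as the exception, and for 27.0% of all genes tested. With scaling by library size alone these counts were 7 and 6 of the 8, and the shares of all genes tested were 22.1% and 25.2%. This pattern was noticed in the values, the 8 genes are not independent of one another, and no test was made of it. Burn replicate 2 also had the lowest TMM factor, 0.807, beside 0.843 to 1.20 in the other burn libraries, and the part of that factor in the pattern was not tested beyond the count of 7. Spread between burn libraries exceeded spread between control libraries for 6 of the 8 genes, the exceptions being Socs1 and Stat3, and for 84.0% of all genes tested.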

How the data were processed

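Poly(A) RNA of 8 libraries was compared, 4 burn and 4 control, grouped by the treatment label. The table the authors deposited gives raw read counts, as whole numbers, for each Ensembl rat gene. Per the submitters' processing notes, TopHat2 2.0.9, HTSeq 0.5.4p3, edgeR, limma, R 3.0.1 and build Rnor_5.0 were named; the sources used here do not give their roles, the annotation, the strand setting or any filter. Reads shared with overlapping or antisense genes could therefore not be told apart.

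All genes were fitted with edgeR 4.0.16 in R 4.3.3 (TMM, default filter leaving 14240 genes, robust quasi-likelihood test, group alone) and p-values were adjusted by Benjamini-Hochberg over all of them, with a threshold of 0.05. The SE is the log2 fold change divided by the root of the F statistic. Log2 CPM used a prior count of 2. Ratios used counts plus 0.5. The procedure was tested on simulated data with planted changes larger than those of the genes described here. That test does not show how well changes of their size are found. Alternatives used DESeq2 1.42.0, limma 3.58.1, other scalings and filters, thinning to 13693811 counts, and leaving out each library. A 0 count allows up to 0.219 CPM in the shallowest library; intervals cover counting error only.

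The members and lists were chosen with earlier results of these data known. Every member was named. The identifiers were paired with symbols only for the 8 members, as the rule for choosing them gives both. The reference table of 47357 genes holds 0 Ensembl identifiers, so 9 lists of genes for pathways and cell types and the search for genes of like pattern were not analysed here. The labels name no animals and do not say that libraries of a group came from separate ones, so no paired fit was made and p-values reflect only how these samples spread, which may be technical.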

Additional observations from a re-analysis of the deposited data

Results flagged for a closer look

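Nfkb1 in burn replicate 2, at 6.86 log2 CPM, lay far from the other 3 burn libraries, the nearest of which was at 6.14. It was the single case picked by 32 screens for a library that departs from its 3 companions, made over the levels of the 8 genes and the 8 ratios in each group. Chance picks about 1 in 20 such groups, and the screens share genes.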

How the results depend on the processing

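Nfkbia and Stat3 kept their direction under all 17 alternatives, with log2 fold changes of 0.83 to 1.21 and -0.83 to -0.52. The adjusted p ran from 8.84e-05 to 0.0538 for Nfkbia and from 0.00612 to 0.126 for Stat3 over edgeR, limma and DESeq2. At an adjusted p under 0.01 the test called 0 of the 8 genes higher and 0 lower, a stricter limit by construction. The share of all genes past 0.01 was not counted. After thinning to one total the test called 0 of the 8 lower, since the adjusted p of Stat3 was 0.0541. It then called 1640 higher and 1352 lower over all genes tested. Leaving out 1 library at a time, with fewer samples, gave 0 to 2 of the 8 genes higher and 0 to 2 lower. Over all genes tested, the calls were then fewest without control replicate 2, at 673 higher and 546 lower. They were most without burn replicate 3, at 2314 higher and 1929 lower, beside 1689 and 1426 with all libraries. Socs3 turned to -0.039 by limma-voom and -0.020 with sample quality weights, and ran from -1.08 (without burn replicate 2) to 1.44 when 1 library was left out; the cause was not tested, and DESeq2 gave it no adjusted p. Without 1 library the log2 difference of the Socs3 to Stat3 ratio ran from -0.091 to 1.19 and that of Socs3 to Socs1 from -1.07 to 0.019. The other 6 ratios kept their direction. An offset of 0.1 counts also left 0 pairs past the threshold. With library size alone the median over all genes tested went from 0.06 to -0.15 (log2), and under it Nfkbia was at 0.83 and Stat3 at -0.83. How often the second library of a group was highest under that scaling was counted after seeing the data. No paired analysis was possible because the labels give no animal or shared replicate numbers. Depth limits Socs1 most, with as few as 33 counts in a library.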
